A study of Mus musculus with 5 samples.

Results

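The adhesion G protein-coupled receptors are a family of membrane receptors whose mouse gene symbols consist of Adgr, a subfamily letter and a number. All 27 genes with such a symbol among the 78334 genes listed in the count matrices were taken, whatever their values. Most of these receptors carry a long extracellular part with adhesion domains and an autoproteolysis domain. It lies in front of a membrane-spanning part that can couple to G proteins. Binding to a ligand on a neighbouring cell or in the matrix can expose a short tethered agonist that activates the receptor. In the brain, the latrophilins (L group) and the brain angiogenesis inhibitor receptors (BAI, B group) act at synapses, members of the A, F and L groups work in vessels, the E group marks leukocytes, and the G group includes receptors for collagens and laminins that act in myelination and cortical development.

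The receptors were measured in 5 libraries of mouse dentate gyrus, each from a group given as 10 mice. In the first experiment, dissociated cells came from wild-type mice 14 days after contextual fear conditioning (CFC-14d) and from wild-type mice 14 days after random foot shocks (Random-14d). In the second experiment, nuclei from frozen tissue came from knockout mice 14 days after conditioning (KO-CFC), wild-type mice 14 days after conditioning (WT-CFC) and untrained wild-type mice (WT-naive). With 1 library in each group there is no replicate, so no difference below has a test, and the intervals given are exact 95% counting intervals that cover counting error only.

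The title of the KO-CFC sample names a Csf2rb2 knockout and its genotype label reads Csf2rb3-KO, and Csf2rb2 RNA was still counted in it: mossy cell-like nuclei had 191 UMIs (unique molecular identifiers, which tag captured RNA molecules) or 90.7 CPM in KO-CFC, against 875 UMIs or 115 CPM in WT-CFC and 688 UMIs or 97.2 CPM in WT-naive. CPM is the usual unit for counts scaled to the same total, here the UMIs of the class in a library. A count in the 3′ end of a gene need not report on a deletion elsewhere in it, so these nuclei are named by their label below. That library also stood apart in genes unrelated to the receptors. Xist, the RNA of the inactive X chromosome of females, was at 611 CPM in KO-CFC, 1.88 CPM in WT-CFC and 3.08 CPM in WT-naive, so genotype and sex cannot be told apart. B cell markers summed to 633, 7.21 and 7.09 CPM in the same order of libraries, and Ifit1 and Ifit3 to 41.3, 2.10 and 1.40 CPM. In the cells, haemoglobin genes were 5.34% of the CFC-14d total and 10.7% of the Random-14d total. Barcode sequences shared between libraries numbered 282 for CFC-14d and Random-14d and 25 to 32 for pairs of nuclei libraries.

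The matrices held 32827 barcodes and 126937815 UMIs for CFC-14d, and 30515 barcodes and 122920565 UMIs for Random-14d. The nuclei held 8395 barcodes and 38045642 UMIs in KO-CFC, 13213 and 68519389 in WT-CFC, and 10968 and 64716053 in WT-naive. Clusters were named from marker genes, and each named class is called "-like". The clusters without a name held 37.2% of kept barcodes in CFC-14d, 20.7% in Random-14d, 22% in KO-CFC, 42.7% in WT-CFC and 25.3% in WT-naive.

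The family was unevenly detected. Over the 2 libraries of cells, 17 of the 27 receptors had 100 or more counts, and over the 3 libraries of nuclei 20 did. The receptors together had 32311 UMIs (CFC-14d), 31819 (Random-14d), 79843 (KO-CFC), 150114 (WT-CFC) and 143429 (WT-naive). In the nuclei, 152382 of these counts were Adgrb3 and 95108 were Adgrl3. In the cells, Adgrg1 had 11331 counts, Adgrl4 9765, Adgrf5 5889, Adgre1 5335 and Adgre5 4933. At the low end, Adgrf1 (1 count in cells, 9 in nuclei), Adgrf3 (2 and 6), Adgrg7 (3 and 17), Adgrg5 (35 and 13), Adgrg3 (96 and 39) and Adgrg4 (1 and 90) stayed under 100 counts in both kinds of library. Adgrd1 (7 counts), Adgrf2 (17), Adgrf4 (5) and Adgrg2 (51) were under 100 in the cells and passed it in the nuclei, and Adgre4 did the reverse, with 522 counts in the cells and 37 in the nuclei. A 3′ count depends on how each gene's end is primed, so levels are compared below between cell classes for the same gene, not between genes, and the highest class of a receptor is the highest among named classes.

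Summed over the family, endothelial-like cells stood highest among the classes of cells, with 2260 CPM in CFC-14d and 2190 CPM in Random-14d. Astrocyte-like cells had 690 and 738 CPM, microglia-like cells 335 and 329 CPM, and choroid plexus epithelial-like cells 85.0 and 83.6 CPM. Among the nuclei, oligodendrocyte precursor-like nuclei had 3110 CPM in KO-CFC, 3480 in WT-CFC and 3420 in WT-naive, and microglia-like nuclei 750, 642 and 668 CPM. Cells and nuclei were clustered apart, and their levels are not compared with each other.

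**Figure D1:**
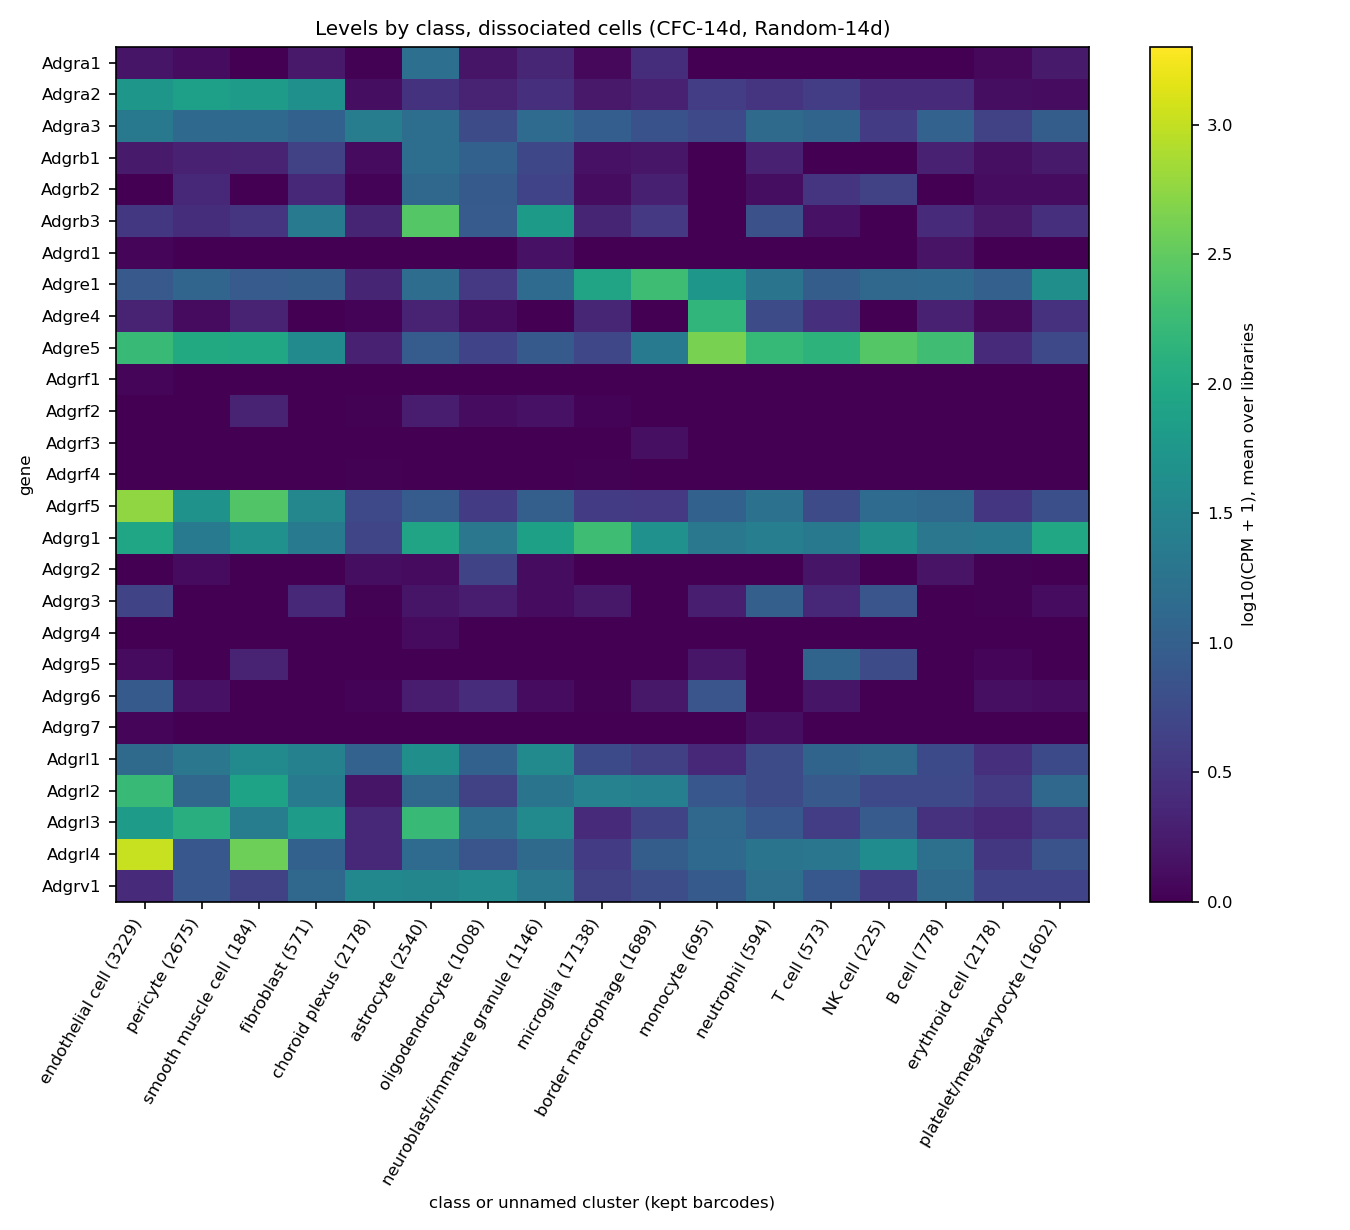
Level of the 27 receptors (rows) in each named class of dissociated cells (columns, with barcode numbers), as the mean CPM over CFC-14d and Random-14d, coloured on a log10(CPM + 1) scale. Adgrl4 and Adgrf5 stand out in the endothelial column, Adgre4 and Adgre5 in the monocyte column and Adgrb3 in the astrocyte column.

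Adgrl4 and Adgrf5 were the vascular receptors of the cells. Adgrl4, first described as an endothelial receptor with epidermal growth factor and latrophilin-like domains, was at 1064 CPM (95% interval 1030 to 1098) in endothelial-like cells of CFC-14d and 1053 CPM (1022 to 1084) in those of Random-14d. That class held 84.5% of all Adgrl4 counts in the cells. Adgrf5, which acts with Adgrl4 in the vessels of the mouse kidney, was at 583.7 and 530.2 CPM there, with 73.5% of its counts. The gene start of each is shown, since both were highest in endothelial-like cells. The sequences are from RefSeq, build GRCm38.p6, and run 5′ to 3′ on the plus strand from 250 bases before the start to 50 bases after it. Capitals mark GAGGAA, letters that hold the GGAA core known for ETS factors, a family of transcription factors active in endothelium. Both windows hold GGAA at other places too, which are not marked.
Adgrl4, chr3:151437632-151437931: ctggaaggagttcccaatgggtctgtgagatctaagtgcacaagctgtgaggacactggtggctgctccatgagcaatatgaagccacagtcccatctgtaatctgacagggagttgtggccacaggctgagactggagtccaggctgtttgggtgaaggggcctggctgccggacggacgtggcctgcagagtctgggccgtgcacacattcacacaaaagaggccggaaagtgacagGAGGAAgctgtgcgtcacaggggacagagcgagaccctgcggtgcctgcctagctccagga
Adgrf5, chr17:43360181-43360480: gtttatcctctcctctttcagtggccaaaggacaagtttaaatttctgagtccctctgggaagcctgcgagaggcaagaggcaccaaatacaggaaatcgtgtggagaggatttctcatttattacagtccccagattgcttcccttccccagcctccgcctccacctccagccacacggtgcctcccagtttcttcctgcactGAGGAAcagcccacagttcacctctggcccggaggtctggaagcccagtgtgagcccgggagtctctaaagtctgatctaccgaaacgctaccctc

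Searched on both strands, each window held 1 match to GAGGAA. Of all 32851 windows of this length in the table, 9289 (28.3%) held at least 1 match, and of 24 windows that belong to receptors 10 did. The table matched 20 of the 27 members by symbol. A match describes these letters and says nothing about binding.

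Outside endothelium, Adgrl4 was low in microglia-like cells, at 2.41 CPM in CFC-14d and 3.09 CPM in Random-14d, and in pericyte-like cells, at 8.54 and 5.13 CPM. After each barcode was thinned to 1000 UMIs, 65.2% of endothelial-like cells in CFC-14d and 63.6% in Random-14d had an Adgrl4 UMI, against 0.232% and 0.362% of microglia-like cells. The unthinned shares were 82.3% and 77.2% in endothelial-like cells and 0.625% and 0.655% in microglia-like cells, at median depths of 1860 and 1650 UMIs and of 2400 and 2020 UMIs. The source of the Adgrl4 UMIs in microglia-like cells was not tested. Smooth muscle-like cells (86 and 98 barcodes) had 158 CPM of Adgrl4 in CFC-14d and 593 CPM in Random-14d, and 138 and 371 CPM of Adgrf5. Endothelial markers summed to 3140 CPM in the same barcodes of CFC-14d and 10900 CPM in those of Random-14d, and their part in these values was not tested. Pericyte-like cells had 46.1 CPM of Adgrf5 in CFC-14d and 51.8 CPM in Random-14d.

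Other receptors known from vessels were found in several classes. Adgrl2, a latrophilin, was highest in endothelial-like cells, at 163 CPM in CFC-14d and 177 CPM in Random-14d, with 26.4 and 29.5 CPM in microglia-like cells. Adgra2, which with Reck lets endothelial cells respond to Wnt7a and Wnt7b, had 75.2 and 66.7 CPM in pericyte-like cells, 60.7 and 50.4 CPM in endothelial-like cells, 51.2 and 75.0 CPM in smooth muscle-like cells and 44.6 and 43.8 CPM in fibroblast-like cells. These 4 classes were close for Adgra2, and which of them came first changed with the filter and the clustering. Adgra3, a receptor related to Adgra2, had 23.8 and 24.3 CPM in choroid plexus epithelial-like cells and 18.8 and 22.2 CPM in endothelial-like cells. Adgrg6, which Schwann cells need for peripheral myelination, had only 131 counts in the cells. On average it was highest in endothelial-like cells, at 5.90 CPM in CFC-14d and 9.43 CPM in Random-14d. Monocyte-like cells were above them in CFC-14d, with 8.39 and 12.65 CPM in their clusters, on 8 and 9 counts. In Random-14d the second of these clusters had 4.25 CPM, on 3 counts.

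The E group, named for its epidermal growth factor-like domains, was found in leukocytes. Adgre1, the antigen F4/80 of mouse macrophages, was at 191 CPM in CFC-14d and 186 CPM in Random-14d in border-associated macrophage-like cells. Microglia-like cells had 87.1 and 79.4 CPM and monocyte-like cells 57.7 and 52.4 CPM. The border-associated macrophage-like class joined a cluster of 267 and 290 barcodes, at 299 and 255 CPM, with another of 677 and 455 barcodes. In the latter Adgre1 was at 78.6 and 82.6 CPM, near its level in microglia-like cells. Adgre4 was led by monocyte-like cells, at 137.5 and 155 CPM. Adgre5, the leukocyte antigen CD97, was spread over more classes. Monocyte-like cells had 434 and 436 CPM, NK cell-like cells 259.7 and 273 CPM, B cell-like cells 164.5 and 226 CPM, T cell-like cells 129 and 145 CPM and endothelial-like cells 175 and 164 CPM. Microglia-like cells had 3.90 CPM of Adgre5 in CFC-14d and 4.10 CPM in Random-14d, while Adgre1 was well above that in the same cells. Thinned shares followed the levels: 34.5% and 35.7% of monocyte-like cells had an Adgre5 UMI and 0.451% and 0.394% of microglia-like cells did.

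The G group was led by Adgrg1, also called GPR56, a receptor for collagen III and transglutaminase 2 that acts in oligodendrocyte precursors, astrocytes and microglia. In the cells it was highest in microglia-like cells, at 188.1 CPM in CFC-14d and 187.7 CPM in Random-14d. Platelet-like cells had 102 and 88.8 CPM, endothelial-like cells 95 and 81.8 CPM, astrocyte-like cells 77.3 and 90.6 CPM and neuroblast-like cells 79.0 and 69.8 CPM. Microglia markers were present beside these values, at 13400 and 14400 CPM in platelet-like, 5120 and 4140 CPM in astrocyte-like and 4390 and 3740 CPM in neuroblast-like cells, compared with 26900 and 27200 CPM in microglia-like cells, and their part in Adgrg1 there was not tested. In oligodendrocyte-like cells, 1.85% and 0.697% of barcodes thinned to 1000 UMIs had an Adgrg1 UMI, against 16.4% and 17.4% of microglia-like cells.

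The neural receptors were seen in the cells mainly in astrocyte-like cells, since mature neurons gave no named class there. Adgrb3, a BAI receptor that binds C1q-like proteins at synapses, was at 265 CPM in CFC-14d and 275 CPM in Random-14d in astrocyte-like cells, 57.3 and 66.3 CPM in neuroblast-like cells and 1.39 and 1.06 CPM in microglia-like cells. Adgrl3, the latrophilin that binds teneurins and FLRT proteins, was at 166 and 169 CPM in astrocyte-like cells, 112 and 123 CPM in pericyte-like cells, 66.0 and 67.2 CPM in endothelial-like cells and 64.2 and 63.7 CPM in fibroblast-like cells. Adgrl1 was at 44.4 and 42.3 CPM in astrocyte-like cells and at 35.6 and 38.7 CPM in smooth muscle-like cells. Adgrb1, which binds phosphatidylserine and signals through Elmo1 and Dock1, had 13 and 16.5 CPM in astrocyte-like cells, Adgrb2 had 12.5 and 11.5 CPM and Adgra1 had 16.5 and 13.2 CPM. Adgrv1, the very large receptor that is mutated in Usher syndrome, had 37.8 and 38.4 CPM in oligodendrocyte-like cells, 35 and 33.3 CPM in choroid plexus epithelial-like cells and 27.4 and 35.1 CPM in astrocyte-like cells, and which of these 3 classes led changed with the setting.

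**Figure D2:**
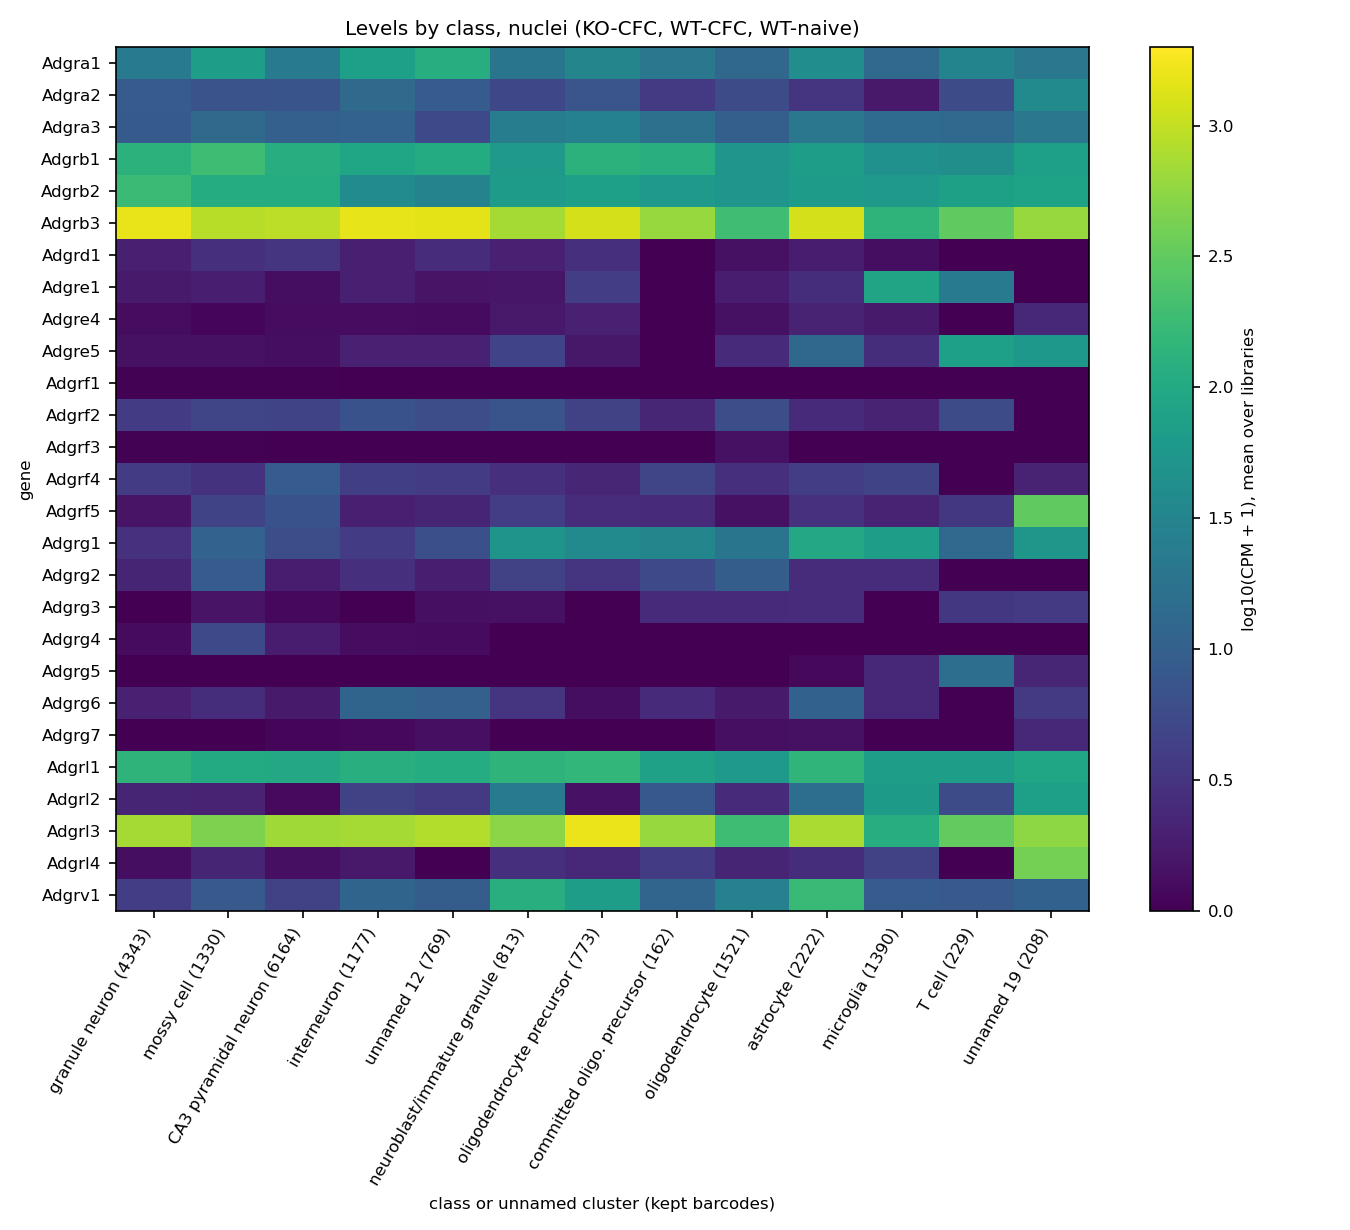
Level of the 27 receptors (rows) in each named class of nuclei (columns, with barcode numbers), as the mean CPM over the libraries with 20 or more barcodes of the class, coloured on a log10(CPM + 1) scale. Adgrb3 and Adgrl3 form bright rows across the neuronal and glial columns, and Adgre1 is seen in the microglia column.

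In the nuclei, Adgrb3 was high in every neuronal class and in glia other than oligodendrocyte-like and microglia-like nuclei. Dentate granule neuron-like nuclei had 1382 CPM in KO-CFC, 1531 in WT-CFC and 1711 in WT-naive. Interneuron-like nuclei had 1356, 1557 and 1636 CPM in the same libraries, oligodendrocyte precursor-like nuclei 1204, 1255 and 1215 CPM, and astrocyte-like nuclei 951, 1261 and 1405 CPM. It was lower in CA3 pyramidal neuron-like nuclei (852, 958 and 976 CPM) and mossy cell-like nuclei (726, 988 and 940.4 CPM), and lowest in oligodendrocyte-like (206, 149 and 224 CPM) and microglia-like nuclei (166, 113 and 138 CPM). After thinning to 1000 UMIs, 71.6%, 75.2% and 75.9% of granule neuron-like nuclei had an Adgrb3 UMI, against 8.41%, 6.50% and 10.6% of microglia-like nuclei. Unthinned, these were 94.3%, 97.7% and 98.1% against 10.2%, 10.5% and 11.8%, at median depths of 3470, 5090 and 4460 UMIs and of 1120, 1350 and 1200 UMIs. Neuron markers summed to 1150, 1830 and 1590 CPM in microglia-like nuclei, compared with 4240, 5510 and 5220 CPM in CA3-like nuclei. The part of neuronal RNA in the receptor values of microglia-like and oligodendrocyte-like nuclei was not tested.

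The other BAI receptors were found in neuronal and glial classes. Adgrb1 was on average highest in mossy cell-like nuclei, at 135 CPM in KO-CFC, 239 in WT-CFC and 185 in WT-naive, with 139.6, 133 and 117 CPM in granule neuron-like nuclei, 110.3, 157 and 121.5 CPM in oligodendrocyte precursor-like nuclei and 98.9, 127 and 116 CPM in CA3-like nuclei. Adgrb2 was highest in granule neuron-like nuclei, at 166, 196 and 165 CPM, followed by CA3-like nuclei at 106, 120.0 and 106.5 CPM. Interneuron-like nuclei, in contrast, had 52.2, 34.9 and 28.3 CPM of Adgrb2, below microglia-like nuclei of each library (70.9, 57.4 and 51.0 CPM).

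Among latrophilins, Adgrl3 was highest in oligodendrocyte precursor-like nuclei, at 1377 CPM in KO-CFC, 1647 in WT-CFC and 1696 in WT-naive. Astrocyte-like nuclei had 686, 767 and 823 CPM, interneuron-like nuclei 633, 771 and 762 CPM, CA3-like nuclei 640.5, 680.5 and 725 CPM and mossy cell-like nuclei 424, 440.2 and 479 CPM. In these 5 classes the library labelled KO-CFC was the lowest of the 3. Granule neuron-like nuclei differed, with 1041 CPM in KO-CFC, 627 in WT-CFC and 509 in WT-naive. Thinned shares with an Adgrl3 UMI were 70.5%, 79.9% and 81.8% in oligodendrocyte precursor-like nuclei and 9.05%, 6.86% and 7.35% in microglia-like nuclei. Adgrl1 varied less between classes: oligodendrocyte precursor-like nuclei had 164, 138 and 151 CPM, astrocyte-like nuclei 114, 159 and 153.5 CPM, and granule neuron-like nuclei 135, 145 and 132 CPM.

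Adgra1, an orphan receptor enriched in brain, was highest in inhibitory and mossy neurons. Interneuron-like nuclei had 78.8 CPM in KO-CFC, 76.3 in WT-CFC and 61.6 in WT-naive, and an unnamed cluster with interneuron markers, led by Kcnmb2 and Hs3st5, had 114, 119 and 106 CPM. Mossy cell-like nuclei had 111, 54.1 and 42.8 CPM. Astrocyte-like nuclei had 54.2, 35.1 and 31.4 CPM, oligodendrocyte precursor-like nuclei 32.8, 29.2 and 29.3 CPM, granule neuron-like nuclei 31.4, 16.2 and 17.5 CPM and CA3-like nuclei 34.8, 14.9 and 14.0 CPM. KO-CFC stood highest of the 3 libraries in all of these named classes.

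Adgrv1 and Adgrg1 were on average highest in astrocyte-like nuclei among the named classes. For Adgrv1 these nuclei stayed highest in 6 of 8 alternative settings. Adgrv1 was at 151 CPM in KO-CFC, 135 in WT-CFC and 217 in WT-naive in astrocyte-like nuclei, 70.6, 123 and 164 CPM in neuroblast-like nuclei and 59.6, 70.1 and 74.0 CPM in oligodendrocyte precursor-like nuclei. Adgrg1 was at 59.6, 106 and 122 CPM in astrocyte-like nuclei, 40.9, 91.4 and 72.8 CPM in microglia-like nuclei and 36.2, 52.1 and 59.8 CPM in neuroblast-like nuclei. For Adgrg1 the KO-CFC value was the lowest in each of these 3 classes. Adgre1 remained a microglial gene in the nuclei, at 94.8, 93.5 and 60.7 CPM in microglia-like nuclei. There 8.41%, 8.66% and 5.71% of thinned barcodes had an Adgre1 UMI, while in oligodendrocyte-like nuclei 0.279% and 0.240% did in KO-CFC and WT-naive, and 0 of 639 in WT-CFC. Adgrf4 was at 7.91, 7.24 and 8.87 CPM in CA3-like nuclei, its highest named class, and Adgrd1 at 2.74, 1.73 and 2.06 CPM there. Both were higher in an unnamed cluster of 150 KO-CFC nuclei led by Mageb18 and Adam2, at 13.8 CPM (17 counts) for Adgrf4 and 16.2 CPM (20 counts) for Adgrd1. Adgra3 had 20.9, 42.9 and 16.8 CPM in oligodendrocyte precursor-like nuclei. Adgrg2 was on average highest in oligodendrocyte-like nuclei, at 6.39, 14.4 and 4.29 CPM, closely followed by mossy cell-like nuclei. Adgrf2 was highest in neuroblast-like nuclei, at 5.43, 8.34 and 4.69 CPM, on 3, 4 and 4 counts. Adgrg6 was on average highest in interneuron-like nuclei, with 12.9, 9.79 and 24.4 CPM in cluster 13 and 2.78, 4.72 and 4.955 CPM in cluster 16. In KO-CFC astrocyte-like nuclei were above them for Adgrg6, with 8.41 CPM in cluster 4 and 28.5 CPM in cluster 14. The highest classes of Adgrg2, Adgrf2 and Adgrg6 each stayed highest in 5 of 8 alternative settings. For Adgrg6, astrocyte-like nuclei led in the others.

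**Figure D3:**
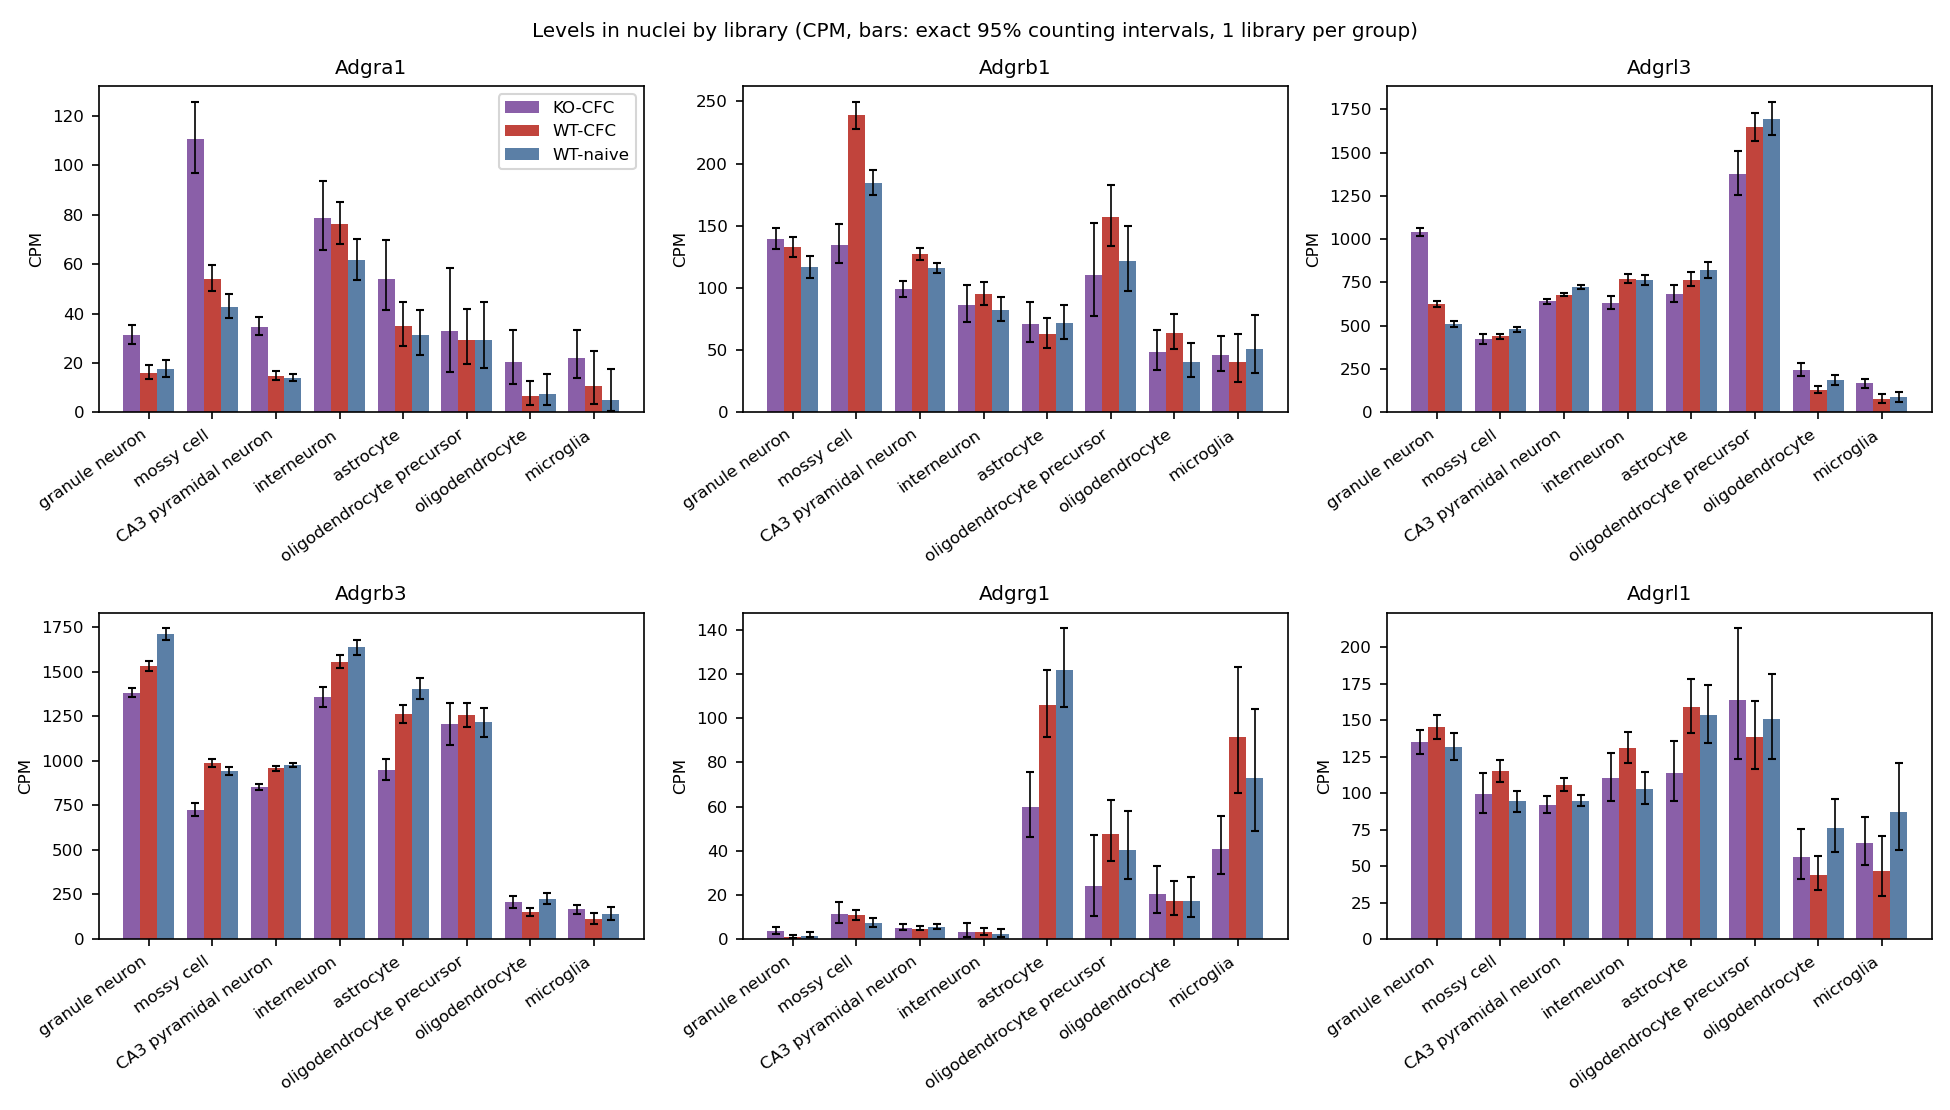
CPM of 6 receptors in 8 named classes of nuclei, with bars for KO-CFC, WT-CFC and WT-naive and exact 95% counting intervals as error bars. The Adgra1 panel shows KO-CFC above both wild-type libraries in mossy cell-like and CA3-like nuclei, and the Adgrl3 panel shows it above them in granule neuron-like nuclei.

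The first comparison asked whether receptor levels 14 days after conditioning differed from those after random shocks. A receptor was compared in a class where both libraries had 100 or more barcodes and the gene 100 or more counts over both, and was called where the CPM ratio was past 1.5-fold. Of 49 receptor and class pairs (13 receptors, 14 classes), none was higher in CFC-14d and 2 were lower, beside a background of 5.87% of all gene and class pairs past 1.5-fold (4.01% higher, 1.86% lower). The median log2 ratio was -0.02 over the receptor pairs and 0.04 over all pairs, and 20 of the 49 were above 0. For Adgrl4 in endothelial-like cells the intervals of the libraries overlapped, and likewise for Adgrg1 in microglia-like cells. For Adgrf5 in endothelial-like cells they did not overlap, with a log2 ratio of 0.14, within 1.5-fold.

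The pairs that were lower in CFC-14d were Adgre5 in neutrophil-like cells and Adgrg1 in border-associated macrophage-like cells. Adgre5 had 62.6 CPM in CFC-14d and 261 CPM in Random-14d in neutrophil-like cells (log2 -2.06, interval -2.45 to -1.67). In that class 39.2% of all genes were past 1.5-fold, and it was made of different clusters in the 2 libraries: a cluster led by Camp and Ngp gave 404 of the barcodes of CFC-14d and 11 of those of Random-14d, and a cluster led by S100a9 and S100a8 gave 70 and 109. Within them Adgre5 was at 14.9 and 23.7 CPM and at 347.5 and 432 CPM. Adgrg1 had 35.5 CPM in CFC-14d and 56.7 CPM in Random-14d in border-associated macrophage-like cells (log2 -0.67, interval -1.18 to -0.18). Adgrg1 was lower in CFC-14d in both clusters of the class, with 50.0 against 93.1 CPM and 21.6 against 32.1 CPM. Microglia markers summed to 11200 CPM in that class in CFC-14d and 12400 CPM in Random-14d.

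**Figure D4:**
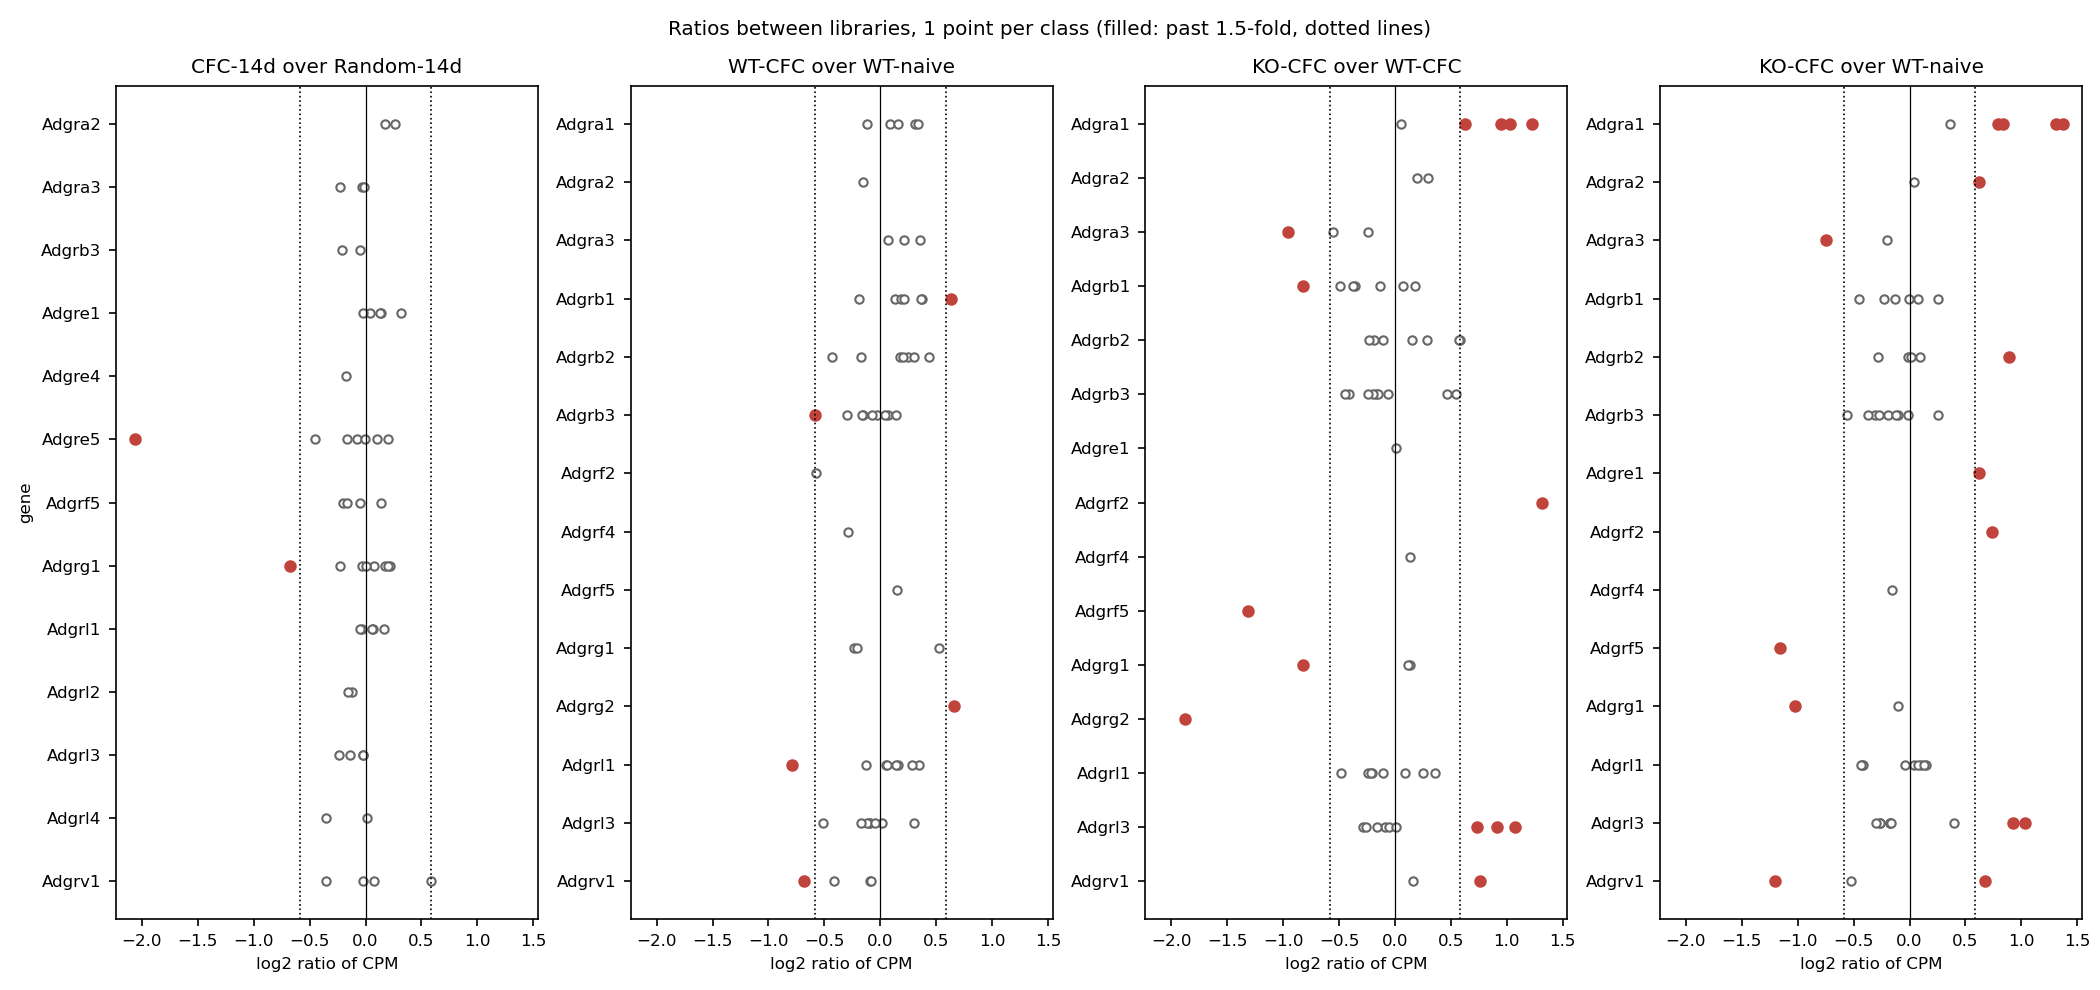
Log2 ratio of CPM of each receptor in each named class (1 point per class) for the 4 comparisons, as CFC-14d over Random-14d, WT-CFC over WT-naive, KO-CFC over WT-CFC and KO-CFC over WT-naive. Filled points lie past 1.5-fold, marked by dotted lines; the panels of KO-CFC hold 14 and 15 filled points, and those without it 2 and 5.

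Conditioned and untrained wild-type nuclei were compared in 59 receptor and class pairs (14 receptors, 9 classes). Of these, 2 were higher and 3 lower in WT-CFC, beside 6.05% of all pairs (3.43% higher, 2.62% lower), and the median log2 ratio was 0.05 over both the receptors and all genes. Adgrb1 in oligodendrocyte-like nuclei was at 63.6 CPM in WT-CFC and 40.8 in WT-naive (log2 0.63, interval 0.07 to 1.24). In the same nuclei Adgrb3 was at 149 CPM in WT-CFC and 224 in WT-naive (log2 -0.59) and Adgrl1 at 43.9 and 76.1 CPM (log2 -0.79). These rested on 38 to 209 counts in a library and on a class in which 15.6% of all genes were past 1.5-fold. Under other settings Adgrb3 turned to 0.32 and 0.19 and Adgrb1 to -0.23 on the log2 scale. Adgrg2, a receptor best known from the epididymis, was at 13 CPM in WT-CFC and 8.2 CPM in WT-naive in mossy cell-like nuclei (log2 0.66).

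Adgrv1 in astrocyte-like nuclei was at 135 CPM in WT-CFC and 217 in WT-naive, a log2 ratio of -0.68 (-0.93 to -0.44). The class joined a pair of clusters that differed strongly in Adgrv1. Cluster 14, led by Tnc, Shroom3 and Rgs20, had 758.5 CPM of Adgrv1 in WT-CFC and 648 CPM in WT-naive, while cluster 4, led by Atp13a4, Rorb and Gpc5, had 39.9 and 31.7 CPM. Within each cluster the value was thus higher in WT-CFC (log2 0.23 and 0.32), opposite in sign to the class. Cluster 14 held 113 nuclei of WT-CFC and 239 of WT-naive, and cluster 4 held 738 and 592.

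**Figure D5:**
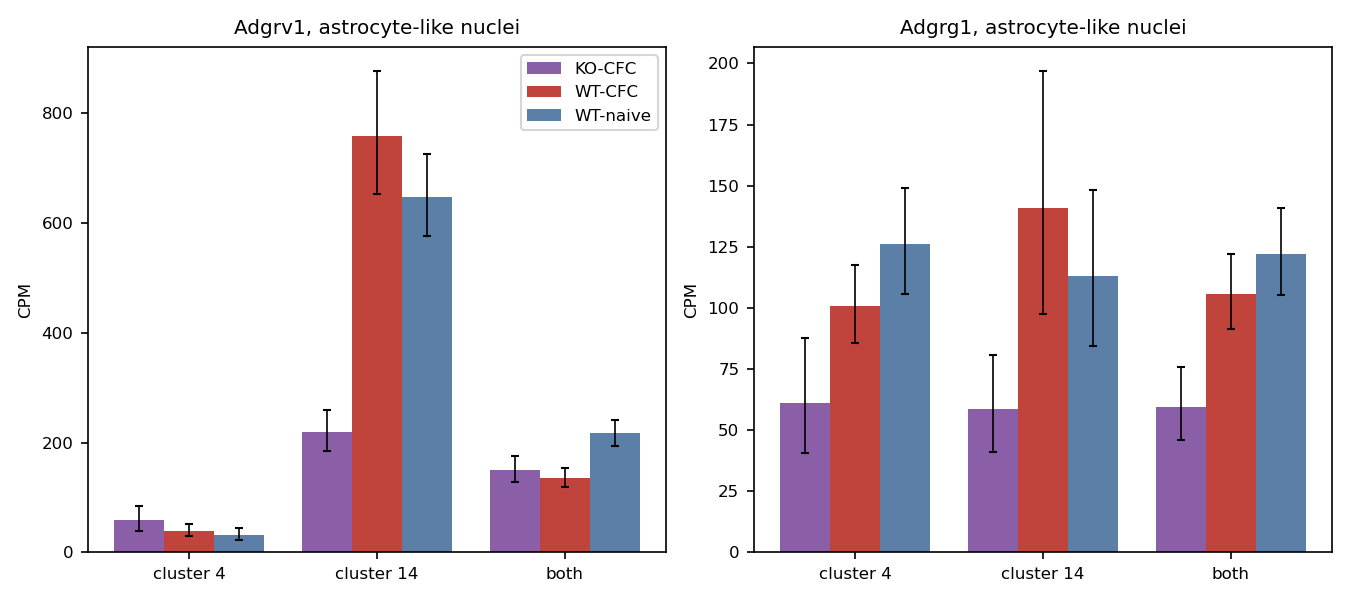
CPM of Adgrv1 and Adgrg1 in astrocyte-like cluster 4, in cluster 14 and in both together, for KO-CFC, WT-CFC and WT-naive, with exact 95% counting intervals. Adgrv1 in cluster 14 is at 220.0 CPM in KO-CFC and above 600 CPM in both wild-type libraries, and Adgrg1 is lowest in KO-CFC in each panel.

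The library labelled KO-CFC was compared with WT-CFC in 60 receptor and class pairs and with WT-naive in 56. The comparisons share the KO-CFC library, and the one of WT-CFC with WT-naive shares each of its libraries with one of them, so they are not independent. Against WT-CFC, 9 pairs were higher and 5 lower, beside 22.4% of all gene and class pairs past 1.5-fold (14.4% higher, 8.01% lower). Against WT-naive, 11 were higher and 4 lower, beside 22.0% (15.5% higher, 6.46% lower). The receptors' shares, 23.3% and 26.8%, were near these backgrounds, so the counts are not a result about the family. Their median log2 ratios were -0.06 and -0.07, and those of all pairs were 0.02 and 0.07.

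Adgra1 was above both wild-type libraries in each of the 5 classes measured. In mossy cell-like nuclei it had 111 CPM in KO-CFC, 54.1 in WT-CFC and 42.8 in WT-naive (log2 ratio 1.03, interval 0.79 to 1.27, against WT-CFC and 1.37 against WT-naive). In CA3-like nuclei the log2 ratios were 1.22 and 1.31, in granule neuron-like nuclei 0.95 and 0.83, and in astrocyte-like nuclei 0.63 and 0.79, all past 1.5-fold. An Adgra1 UMI was found, after thinning to 1000 UMIs, in 10.9% of mossy cell-like barcodes of KO-CFC, against 6.19% in WT-CFC and 4.57% in WT-naive. The unthinned shares were 56.5%, 42.5% and 33.5%, at median depths of 8330, 13400 and 11300 UMIs, and microglia-like nuclei had thinned shares of 1.94%, 1.44% and 0.816%. In CA3-like nuclei most barcodes of KO-CFC lay in a cluster of 900 nuclei in which WT-CFC had 5 and WT-naive 13. There Adgra1 was at 31.6 CPM in KO-CFC, and in the CA3 cluster that the 3 libraries shared most it was at 17.6 CPM in KO-CFC, 11.0 in WT-CFC and 11.4 in WT-naive. The other CA3 cluster had 76.7, 50.1 and 41.7 CPM.

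Adgrl3 in granule neuron-like nuclei had a log2 ratio of 0.73 (0.68 to 0.78) against WT-CFC and 1.03 (0.97 to 1.09) against WT-naive. These nuclei lay mostly in different clusters: cluster 3 held 1617 nuclei of KO-CFC, 14 of WT-CFC and 35 of WT-naive, and cluster 2 held 178, 1363 and 1136. In cluster 2 Adgrl3 was at 645 CPM in KO-CFC, 626 in WT-CFC and 490.4 in WT-naive, log2 ratios of 0.05 and 0.40, neither past 1.5-fold. In cluster 3 it was at 1080 CPM in KO-CFC, 710 in WT-CFC and 848 in WT-naive. Adgra1, by contrast, was at 42.8, 16.1 and 17.4 CPM in cluster 2. Adgrl3 was also higher in KO-CFC in microglia-like nuclei (168 CPM, against 78.7 in WT-CFC and 87.4 in WT-naive, log2 1.08 and 0.92) and in oligodendrocyte-like nuclei (246.5 CPM, against 131 in WT-CFC, log2 0.91, and 187 in WT-naive). Both are classes with little Adgrl3, and the value in microglia-like nuclei changed sign under other settings.

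Adgrg1 in astrocyte-like nuclei was lower in KO-CFC, with 59.6 CPM against 106 in WT-CFC and 122 in WT-naive (log2 -0.82, interval -1.26 to -0.42, and -1.03). It was lower in each astrocyte cluster, with 61.0, 101 and 126 CPM in cluster 4 and 58.6, 141 and 113 CPM in cluster 14. Markers of microglia, another class with Adgrg1, summed to 321 CPM in astrocyte-like nuclei of KO-CFC, 104 CPM in WT-CFC and 112 CPM in WT-naive. Their part in the Adgrg1 values was not tested. Adgrv1 in the whole class lay between its values in the wild-type libraries, but in cluster 14 it was at 220.0 CPM in KO-CFC, against 758.5 in WT-CFC and 648 in WT-naive (log2 -1.78 and -1.56). In cluster 4 it was at 58.9, 39.9 and 31.7 CPM. Cluster 14 held 267 nuclei of KO-CFC, and cluster 4 held 273. In neuroblast-like nuclei Adgrv1 had a log2 ratio of -1.21 (-1.77 to -0.70) against WT-naive.

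In mossy cell-like nuclei 3 receptors were lower in KO-CFC than in WT-CFC. Adgrb1 had 135 CPM in KO-CFC and 239 in WT-CFC (log2 -0.82, interval -1.01 to -0.64), with 185 CPM in WT-naive. Adgra3 had 8.08 CPM in KO-CFC, 16.0 in WT-CFC and 13.9 in WT-naive (log2 -0.95 and -0.74), on 17 counts in KO-CFC. Adgrg2 had 3.33 and 13 CPM (log2 -1.87), on 7 and 99 counts, and 8.2 CPM in WT-naive. KO-CFC mossy cell-like nuclei were shallower, with 8810 UMIs per nucleus against 14700 in WT-CFC and 12300 in WT-naive, and 24.9% of all genes were past 1.5-fold from WT-CFC in that class.

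In CA3-like nuclei Adgrf2 was at 5.68 CPM in KO-CFC, 2.28 in WT-CFC and 3.41 in WT-naive (log2 1.32 and 0.74), and Adgrf5 at 3.04, 7.65 and 6.89 CPM (log2 -1.31 and -1.16). Adgrv1 was at 4.46, 2.64 and 2.81 CPM there (log2 0.76 and 0.67). These rested on 30 to 174 counts in a library, and KO-CFC lay mostly in the cluster nearly absent from the wild-type libraries. In the CA3 cluster shared most, Adgrf2 was at 3.98 CPM in KO-CFC (7 counts), 2.23 in WT-CFC and 3.25 in WT-naive, and in the other at 5.65, 2.76 and 5.21 CPM, so it was within 1.5-fold of WT-naive in both. Adgrf5 was at 1.14 CPM (2 counts), 7.74 and 6.63 CPM in the one and at 4.04, 6.89 and 9.95 CPM in the other. Adgrv1 was at 5.12, 2.63 and 2.56 CPM in the one and at 2.42, 2.30 and 5.21 CPM in the other, on few counts in KO-CFC in both. A further 3 pairs were past 1.5-fold against WT-naive. Adgrb2 in interneuron-like nuclei was at 52.2 CPM in KO-CFC and 28.3 in WT-naive (log2 0.89), and turned to -0.48 with each library clustered on its own. Adgra2 in granule neuron-like nuclei was at 9.59 and 6.19 CPM (log2 0.62), and Adgre1 in microglia-like nuclei at 94.8 and 60.7 CPM (log2 0.62, with an interval that reached 0).

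The known ligands and intracellular partners of the receptors were taken as lists from general knowledge of the family. Among the BAI ligands, C1ql3, a C1q-like protein that binds Adgrb3, averaged 1506 CPM in granule neuron-like nuclei, and C1ql1 averaged 114 CPM in oligodendrocyte precursor-like nuclei. Of the latrophilin ligands, Tenm2 averaged 4508 CPM in mossy cell-like nuclei. In the cells, Col4a1, a matrix collagen, averaged 393 CPM in pericyte-like cells, and Cd55, the ligand of Adgre5, averaged 515 CPM in B cell-like cells. The partners of Adgra2 included Reck at 39.1 CPM and the Wnt receptor Fzd4 at 92.5 CPM, both in endothelial-like cells.

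Between CFC-14d and Random-14d, 6 pairs of intracellular partners and classes were higher and 2 lower of 178, near the 4.01% higher and 1.86% lower of all pairs. The counts were 2 and 0 of 30 for ligands of the G and F groups, 1 and 2 of 30 for latrophilin ligands, 2 and 0 of 21 for partners of Adgra2, 1 and 0 of 8 for ligands of the E group and 0 and 1 of 5 for BAI ligands. In microglia-like cells Cd55 was at 7.80 CPM in CFC-14d and 4.10 CPM in Random-14d (log2 0.92), and Tgm2, a ligand of Adgrg1, at 23.0 and 15.3 CPM (log2 0.59).

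Between WT-CFC and WT-naive, 2 intracellular pairs were higher and 0 lower of 117, beside 3.43% higher and 2.62% lower of all pairs. The counts were 2 and 1 of 21 for BAI ligands, 3 and 0 of 10 for the E group, 5 and 0 of 29 for the G and F groups, 2 and 3 of 74 for latrophilin ligands and 0 and 1 of 20 for Adgra2 partners. Those past 1.5-fold in astrocyte-like nuclei were C1ql3 (132 CPM in WT-CFC, 226 in WT-naive), Tenm2 (159 and 296.5 CPM), Flrt1 (22.5 and 41.8 CPM) and Fndc4 (57.1 and 36.6 CPM), and in microglia-like nuclei Nrxn3 was at 423 and 274 CPM.

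In KO-CFC against WT-CFC, BAI ligands were higher in 11 and lower in 0 of 23 pairs, beside 14.4% higher and 8.01% lower of all pairs, with a median log2 ratio of 0.58, and against WT-naive in 10 and 0 of 22, beside 15.5% and 6.46%, with a median of 0.40. Ligands of the G and F groups were higher in 10 and lower in 3 of 30 pairs against WT-CFC and in 15 and 1 of 28 against WT-naive. Ligands of the E group were higher in 2 of 10 and 3 of 10, with none lower. Latrophilin ligands gave 8 higher and 4 lower of 72, and 4 and 3 of 73. Intracellular partners gave 5 higher and 18 lower of 114, and 6 and 13 of 110. With both directions together these were near the backgrounds of 22.4% and 22.0%. By direction, a smaller share was higher and a larger share lower than among all pairs, with median log2 ratios of -0.13 and -0.13. Adgra2 partners gave 2 and 2 of 14, and 2 and 2 of 15.

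In astrocyte-like nuclei C1ql2 was at 75.0 CPM in KO-CFC, 12.1 in WT-CFC and 11.1 in WT-naive, and C1ql3 at 371, 132 and 226 CPM. The teneurin Tenm2 was at 533, 159 and 296.5 CPM and Tenm1 at 83.1, 25.8 and 28.1 CPM. Lama2, a laminin that binds Adgrg6, was at 420.0 CPM in KO-CFC and 786 in WT-CFC, and Gna13, the G protein of Adgrg1, at 64.1 and 108 CPM. Rhoa, which acts below Gna13, was at 96.6, 51.6 and 42.5 CPM. C1ql2 in granule neuron-like nuclei was itself higher in KO-CFC, at 212 CPM against 101 in WT-CFC and 58.6 in WT-naive. Neuron markers summed to 1220, 1110 and 1120 CPM in astrocyte-like nuclei, and their part in the ligand values was not tested.

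In microglia-like nuclei Elmo1, which links Adgrb1 to Dock1 in engulfment, was at 779 CPM in KO-CFC, 2009 in WT-CFC and 2080 in WT-naive (log2 -1.37 and -1.42). Dock1 was at 66.9, 147 and 126 CPM (log2 -1.13 and -0.92), and Rac1, which Dock1 activates, at 114, 198 and 180 CPM (log2 -0.80 and -0.66). C1ql2 was at 92.8 CPM in KO-CFC and 19.1 in WT-CFC and Prnp, a ligand of Adgrg6, at 309.5 and 164 CPM. Microglia markers in this class summed to 5770, 9160 and 7490 CPM, lowest in KO-CFC like Elmo1, and 34.6% of all genes in the class were past 1.5-fold from WT-CFC. The part of the marker difference in these values was not tested.

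In the gene order of RefSeq (GRCm38.p6) some receptors are next to each other. Adgrg5, Adgrg1 and Adgrg3 lie in a row on chromosome 8, as do Adgre5 and Adgrl1; Adgrl2 and Adgrl4 lie on chromosome 3, and Adgrf4 and Adgrf2, and Adgrf1 and Adgrf5, on chromosome 17. Neighbours could differ widely in cell class. In the cells Adgrg1 was highest in microglia-like cells while Adgrg5 was at 13.4 CPM in CFC-14d and 7.79 CPM in Random-14d in T cell-like cells, and Adgre5 was highest in monocyte-like cells while Adgrl1 was highest in astrocyte-like cells. Adgrl2 and Adgrl4 were both highest in endothelial-like cells.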

How the data were processed

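The authors deposited 5 matrices of raw UMI counts per gene and barcode, which the file headers credit to Cell Ranger 8.0.1. Per the submitters' processing notes, Seurat 5.4.0 was used, and both GRCm39 and mm39 are given as builds. Alignment settings and doublet removal are not given in the sources used here. Barcodes with at least 500 UMIs and 300 genes and at most 20% (cells) or 5% (nuclei) mitochondrial counts were kept, and the 8% with the highest score against simulated doublets were removed in each library. Cells and nuclei were clustered apart (2000 variable genes without the receptors and sex-linked genes, 30 components, 15 neighbours, Leiden resolution 1) with scikit-learn 1.9.0 and leidenalg 0.10.2 in Python 3.11.15. A cluster was named from marker lists when at least 3 markers were 2-fold above the other clusters and no second class came close. No authors' cell annotation was used.

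Counts were summed per class and library and divided by the class total (CPM), with exact Poisson intervals. Log2 ratios had 0.5 counts added to each sum, with exact binomial intervals, and were computed for every gene with 100 or more counts over both libraries. Calls past 1.5-fold are a rule of size. The formulas for ratios and intervals were run on simulated Poisson counts with known changes, apart from the calculation that gave the values above. Every receptor and class past 1.5-fold is named, and each receptor with 100 or more counts is described. Ligand and partner genes are named where past 1.5-fold in astrocyte-like or microglia-like barcodes, with the values of some of them given, or for a high level in a class. The values of 1 partner gene are not reported here. The receptors, marker lists and partner lists were chosen with earlier results of these data known. Alternatives were other filters, doublet shares, clusterings, weights, class totals, count minimums and folds. After seeing the data, comparisons within single clusters and nuclei levels without KO-CFC were added.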

Additional observations from a re-analysis of the deposited data

Results flagged for a closer look

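Adgrv1 moved in opposite directions in different classes of the library labelled KO-CFC against WT-naive. Its log2 ratio was 0.67 in CA3 pyramidal neuron-like nuclei (4.46 CPM in KO-CFC, 2.81 CPM in WT-naive) and -1.21 in neuroblast-like nuclei (70.6 CPM in KO-CFC, 164 CPM in WT-naive). The CA3-like nuclei of KO-CFC lay mostly in a cluster nearly absent from WT-naive. In the CA3 cluster shared most, Adgrv1 was higher in KO-CFC, and in the other it was lower, both on few counts in KO-CFC. Each class has 1 library on each side, and the difference between the classes was not tested.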

How the results depend on the processing

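No paired analysis was possible because each group has 1 library, and for the same reason no library could be left out within a group. The counts of receptor and class pairs past 1.5-fold depended on the settings, most of all for CFC-14d against Random-14d, where 2 pairs became 11 with at least 1000 UMIs and 500 genes (background 8.21%), 4 with the lower mitochondrial limit, 1 with 15% of barcodes removed as doublets, 10 with each library clustered on its own (background 10.3%), 5 with barcodes weighted equally, 8 with a minimum of 50 counts, 1 with a minimum of 200 counts and 1 past 2-fold. For WT-CFC against WT-naive, 5 pairs became 11 with libraries clustered apart, 3 with equal weights, 9 with 50 counts, 2 with 200 counts and 0 past 2-fold. For KO-CFC against WT-CFC, 14 pairs became 25 with 50 counts, 8 with 200 counts and 6 past 2-fold, and for KO-CFC against WT-naive 15 became 25, 7 and 6. The causes were not tested, beyond the minimum and the fold themselves changing how many pairs can pass. Where no background is given, the count is not set beside the share of all pairs in that setting. Such a count shows how far the calls depend on the setting and is not a result about the family.

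Of the named pairs, 1 of 2 (CFC-14d against Random-14d), 0 of 5 (WT-CFC against WT-naive), 12 of 14 (KO-CFC against WT-CFC) and 10 of 15 (KO-CFC against WT-naive) stayed past 1.5-fold in every planned setting that keeps that fold and measures the pair. Adgra1 in CA3-like nuclei gave log2 ratios of 1.18 to 1.42 against WT-CFC, Adgrg1 in astrocyte-like nuclei -0.97 to -0.74 and Adgre5 in neutrophil-like cells -2.64 to -1.83. Signs turned round for these pairs. Adgrv1 in astrocyte-like nuclei, WT-CFC against WT-naive, gave 0.40 with at least 1000 UMIs, 2.31 with libraries clustered apart, 0.23 within cluster 14 and 0.32 within cluster 4. In oligodendrocyte-like nuclei of the same comparison, Adgrb3 gave 0.32 with more doublets removed and 0.19 with equal weights, and Adgrb1 gave -0.23 with libraries clustered apart. Adgrl3 in microglia-like nuclei gave -0.65 (mitochondrial limit) and -0.083 (clustered apart) for KO-CFC against WT-CFC, and -0.93, -0.036 (more doublets removed) and -2.25 (clustered apart) for KO-CFC against WT-naive. Adgrb2 in interneuron-like nuclei gave -0.48 for KO-CFC against WT-naive with libraries clustered apart.

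The class in which a receptor was highest was the same in all alternatives for 12 of 17 receptors in the cells and 10 of 20 in the nuclei, and with at least 1000 UMIs it was the same for 12 of the 20. Counting error limits receptors under about 100 counts, and intervals say nothing of differences between mice.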

Other observations

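An unnamed cluster of nuclei led by the vessel genes Slco1a4, Cldn5 and Flt1 held 84 barcodes of KO-CFC, 59 of WT-CFC and 65 of WT-naive, too few for the comparisons above. On average Adgrl4, Adgrf5 and Adgrl2 were higher in it than in any other cluster or class of nuclei. Adgrl4 was at 600.5 CPM in KO-CFC, 402 in WT-CFC and 202.5 in WT-naive, and Adgrf5 at 359, 337 and 245 CPM. Adgra2 was at 58.4, 34.5 and 19.6 CPM there, and Adgre5 at 87.6, 57.5 and 22.9 CPM. Adgrl2 did not follow this order, with 62.6, 88.1 and 62.1 CPM.

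Some values outside the limits of the comparisons were far apart and were picked after they were seen. Adgrg4 was at 11.4 CPM in KO-CFC, 1.18 in WT-CFC and 0.283 in WT-naive in mossy cell-like nuclei, on 24, 9 and 2 counts. Adgrl2 in microglia-like nuclei was at 22.0 CPM in KO-CFC, 85.0 in WT-CFC and 77.7 in WT-naive. Adgrg6 in astrocyte-like nuclei was at 19.9, 3.29 and 5.88 CPM, on 22, 6 and 9 counts. Within cluster 14, of which KO-CFC held the most nuclei, it was at 28.5, 12.4 and 10.9 CPM, and within cluster 4 at 8.41, 1.90 and 3.73 CPM. In the cells, Adgre4 in the monocyte-like cluster led by Ear2 and Plac8 was at 224.5 CPM in CFC-14d and 393 CPM in Random-14d, and in the other monocyte-like cluster at 21.1 and 26.9 CPM. The first of these held 276 barcodes in CFC-14d and 138 in Random-14d.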
